A study of Mus musculus with 2 samples.

Results

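The 10 potassium channel genes described here were Kcnj8, Abcc9, Kcnj10, Kcnj16, Kcnj2, Kcnn2, Kcnma1, Kcnk2, Kcnk13 and Kcnk6. They were chosen by name as channel genes of glia and vessels, and each matched exactly 1 of the 31053 gene features counted in both libraries. The data were droplet single-cell transcriptomes (10x Genomics 5' chemistry) of hippocampal cells from untreated mice aged 7 months. One library came from Mr1+/+ mice and 1 from mice with both copies of Mr1 disrupted (Mr1-/-), Mr1 being the gene of a class I-like molecule that presents vitamin B metabolites to MAIT cells. Cells were dissociated with a kit made for primary neurons and sorted as DAPI-negative, Draq5-positive events, that is, as nucleated cells that excluded the dead-cell dye. How many mice went into each library, their sex and their background strain were not given in the sources used here. With 1 library per genotype there was no replicate, so no comparison carries a test, and every interval below covers counting error only.

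After filters 5992 Mr1+/+ and 5107 Mr1-/- cells remained, with medians of 3162 and 2921 UMIs (unique molecular identifiers, each standing for 1 captured transcript molecule). Mr1 itself had 130 UMIs in the Mr1+/+ cells and 2 in the Mr1-/- cells, in the direction of the labels. In total 44 barcodes occurred in both libraries before filters, and 39 after. Clustering without any potassium channel gene gave 26 clusters. They were named from marker genes into 11 classes, each called "like" its cell type, and 4 clusters stayed unnamed. Comparisons used the 9 classes that had 50 cells or more per library: pericyte-like (513 Mr1+/+ and 561 Mr1-/- cells), smooth muscle-like (428 and 380), endothelial-like (1309 and 1430), astrocyte-like (956 and 477), oligodendrocyte-like (1436 and 957), ependymal-like (59 and 72), microglia-like (730 and 786), neuron-like (266 and 167, mostly 1 cluster led by Reln) and neuroblast-like (66 and 54). Because astrocyte-like cells were a smaller share of the Mr1-/- library (9.34% against 16.0%) and endothelial-like cells a larger one (28.0% against 21.8%), levels are given within classes, as the gene's share of all UMIs of the class on the counts-per-million scale (CPM).

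Potassium channels let potassium ions leave or enter a cell down their gradient and so set its resting voltage. Pericytes and smooth muscle cells of brain vessels relax when such channels open, and ATP-sensitive (KATP) channels, built from a Kir6 pore and a sulfonylurea receptor, open when cellular energy is low or vasodilators act. Astrocytes and oligodendrocytes use inwardly rectifying (Kir) channels to take up potassium released by active axons, and 2-pore-domain (K2P) channels carry the background leak of many cells, microglia among them.

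Of the 10 genes, 4 lay in 2 pairs of neighbours in the mouse genome (GRCm38), and the bases just upstream of these 4 are printed because 1 pair was highest in the same cell class and the other in different ones. Kcnj8 (chromosome 6, 142564837 to 142571614) and Abcc9 (chromosome 6, 142587862 to 142702315) lie 16.2 kb apart on the minus strand. Kcnj16 (chromosome 11, 110968033 to 111027968) and Kcnj2 (chromosome 11, 111066164 to 111076821) lie 38.2 kb apart on the plus strand. The sequences are from RefSeq (GRCm38.p6), 5′ to 3′ on the gene's strand, and end at the last base before the first annotated exon.
Kcnj8, chr6:142571615-142571864, minus strand: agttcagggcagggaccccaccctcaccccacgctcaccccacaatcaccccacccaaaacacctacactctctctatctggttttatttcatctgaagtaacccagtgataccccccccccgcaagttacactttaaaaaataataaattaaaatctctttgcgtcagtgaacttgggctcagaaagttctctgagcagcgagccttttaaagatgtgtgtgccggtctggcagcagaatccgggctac
Abcc9, chr6:142702316-142702524, minus strand: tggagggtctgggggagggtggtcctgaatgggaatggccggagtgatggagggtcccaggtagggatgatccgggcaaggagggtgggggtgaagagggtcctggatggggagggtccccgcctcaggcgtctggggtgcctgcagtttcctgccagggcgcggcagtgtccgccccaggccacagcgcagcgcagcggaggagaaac
Kcnj16, chr11:110967783-110968032, plus strand: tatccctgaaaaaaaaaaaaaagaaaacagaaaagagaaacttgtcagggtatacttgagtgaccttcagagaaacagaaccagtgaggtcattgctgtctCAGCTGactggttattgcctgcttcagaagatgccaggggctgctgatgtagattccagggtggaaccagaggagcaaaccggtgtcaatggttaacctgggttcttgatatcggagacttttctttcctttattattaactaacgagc
Kcnj2, chr11:111065914-111066163, plus strand: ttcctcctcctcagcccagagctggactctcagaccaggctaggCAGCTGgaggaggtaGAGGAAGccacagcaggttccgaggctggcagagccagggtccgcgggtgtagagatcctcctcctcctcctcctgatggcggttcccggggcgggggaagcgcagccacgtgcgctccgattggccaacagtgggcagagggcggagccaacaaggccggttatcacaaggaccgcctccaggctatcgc
Capitals mark matches to 4 motifs searched on both strands, which did not overlap each other: an E-box (CAGCTG, held by 13% of the 32817 upstream windows of 250 bases in the table), a PU.1 core (GAGGAAG, 10.6%), a SOX core (ACAAAG, 16.5%) and the CArG box of serum response factor (1.47%). The printed Kcnj16 and Kcnj2 windows each held the E-box letters, and Kcnj2 also the PU.1 letters. Among genes whose bases are not printed, Kcnk2 held the PU.1 letters, and Kcnj10 and Kcnk13 none of the 4 motifs. Kcnj16 has 4 annotated start windows, and the other 3 held none of the motifs. The Kcnj8 and Abcc9 windows held none of the 4 motifs. Their base composition differed, with G or C at 49.2% of positions for Kcnj8 and 68.4% for Abcc9. Kcnk6 and Kcnn2 have no sequence shown here.

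In both libraries each of the 10 genes had its highest level in the same class, and these classes were of several kinds. Kcnj8 and Abcc9 were highest in pericyte-like cells, Kcnj10, Kcnj16 and Kcnn2 in astrocyte-like cells, Kcnk13 in oligodendrocyte-like cells, and Kcnj2 and Kcnk6 in microglia-like cells. Against the label of glia and vessel genes, Kcnk2 and Kcnma1 had their highest CPM in neuron-like cells, although astrocyte-like cells held the largest share of Kcnk2 UMIs (48.2% and 40.6%) and smooth muscle-like cells that of Kcnma1 (31.3% and 32.0%). Together the 10 genes gave 8477 UMIs in Mr1+/+ and 6387 in Mr1-/- cells.

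**Figure D1:**
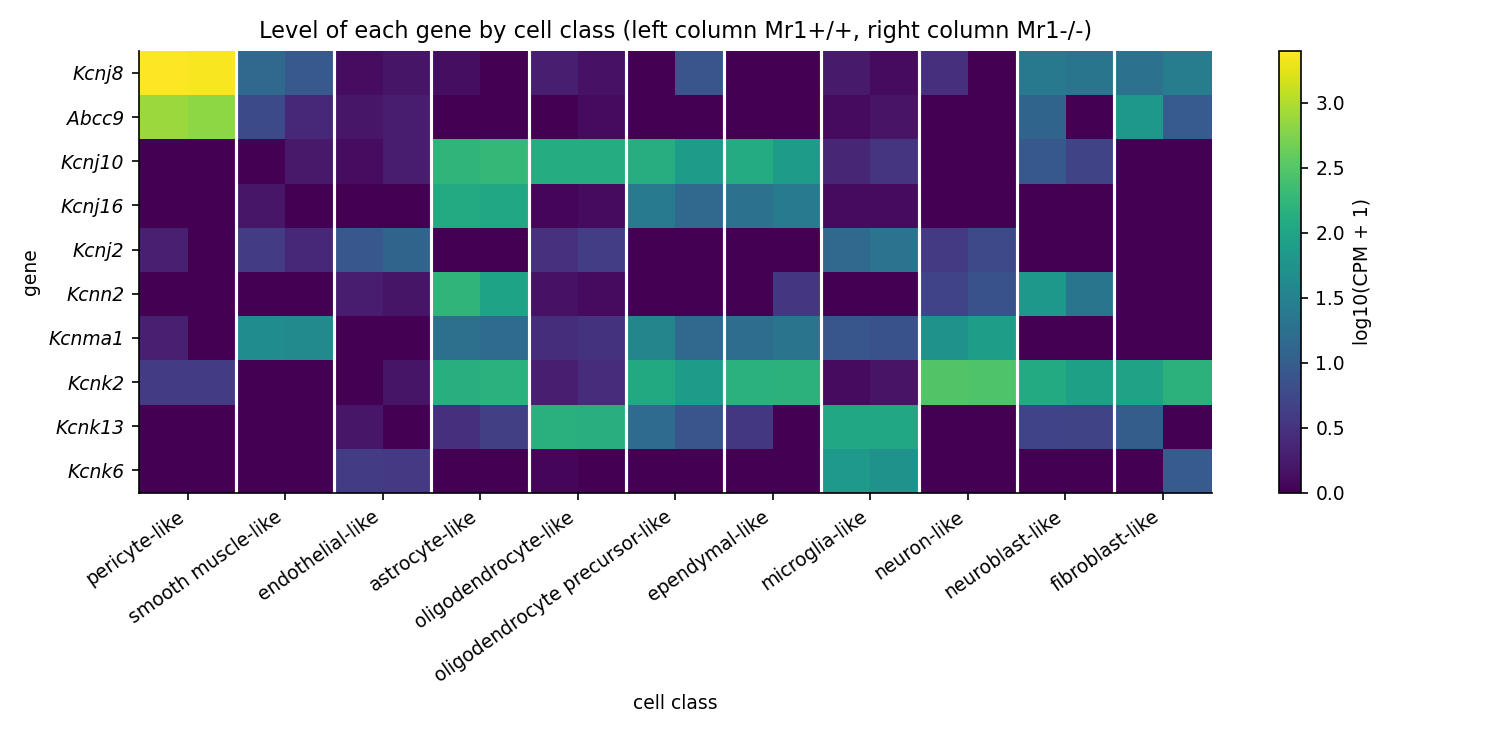
Level of each of the 10 genes (rows) in 11 marker-named cell classes (columns, Mr1+/+ on the left and Mr1-/- on the right of each pair), as log10(CPM + 1). Kcnj8 reached 2500 and 2345 CPM in pericyte-like cells, and most other fields are dark, with paired columns much alike in the brighter fields.

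Kcnj8 encodes Kir6.1, the pore of the vascular KATP channel. It had 2492 UMIs in Mr1+/+ pericyte-like cells (2500 CPM, 95% Poisson interval 2403 to 2600) and 2355 in Mr1-/- ones (2345 CPM, 2251 to 2441). These were 95.9% and 96.2% of all its UMIs. Abcc9 encodes SUR2, the receptor subunit of the same channel. It had 766 UMIs (768 CPM, 715 to 825) and 670 UMIs (667 CPM, 617 to 720) there, 94.1% and 97.0% of its UMIs. The pericyte-like class was named from other genes, and its 8 pericyte markers summed to 41333 and 41398 CPM.

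Smooth muscle cells sit next to pericytes on the vessel wall and had far less of both subunits. Kcnj8 had 22 UMIs (13.4 CPM) in Mr1+/+ and 11 UMIs (7.99 CPM) in Mr1-/- smooth muscle-like cells. The pericyte-like level was 187-fold higher in Mr1+/+ (95% interval 123 to 299) and 294-fold higher in Mr1-/- (164 to 589). Over both libraries the fold was 227, and 435 when channel genes were kept in the clustering. Abcc9 had 8 and 2 UMIs in smooth muscle-like cells, so its folds were 158 (79.9 to 368) and 459 (127 to 3801). Those few UMIs were not spread evenly over the smooth muscle-like cells. Clustering at finer resolution split the class into a cluster led by Cnn1, Tagln and Acta2, genes of the contractile apparatus, and a cluster led by Map3k7cl. The Map3k7cl-led cluster held 19 of the 22 Kcnj8 UMIs in Mr1+/+ and all 11 in Mr1-/-, and all 8 and 2 UMIs of Abcc9. Smooth muscle-like cells carried 3332 and 3643 CPM of the 8 pericyte markers, against 61551 and 56997 CPM of their own 8 markers; the part of pericyte transcripts in these Kcnj8 UMIs was not tested.

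In both pericyte-like clusters of the finer resolution the KATP genes were much the same. These clusters (238 and 241 Mr1+/+ cells, 275 and 262 Mr1-/- cells) together held fewer cells than the pericyte-like class. In the cluster led by Spp1 and Nts, Kcnj8 stood at 2640 CPM in Mr1+/+ and 2479 in Mr1-/-. In the cluster led by Art3 and Casq2 it stood at 2523 and 2341 CPM. Abcc9 was at 764 and 692 CPM in the former and at 805 and 674 CPM in the latter. Clustering at Leiden resolution 1.0 gave a small unnamed cluster led by Ccl19 and Steap4, with 24 and 30 cells. It also held both genes, at lower levels than the pericyte-like class. Kcnj8 was at 754 and 1189 CPM there, from 47 and 68 UMIs, and Abcc9 at 305 and 210 CPM, from 19 and 12 UMIs. At the finer resolution the unnamed cluster led by Ccl19 was larger, with 58 and 55 cells, and these levels do not describe it. An unnamed cluster led by Plvap, the diaphragm protein of fenestrated endothelium, had 16 Kcnj8 UMIs in Mr1+/+, all in 1 of its 30 cells, and 1 UMI in 51 Mr1-/- cells. The 8 Abcc9 UMIs of that cluster in Mr1+/+ likewise came from 1 cell, so neither number describes the cluster.

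**Figure D2:**
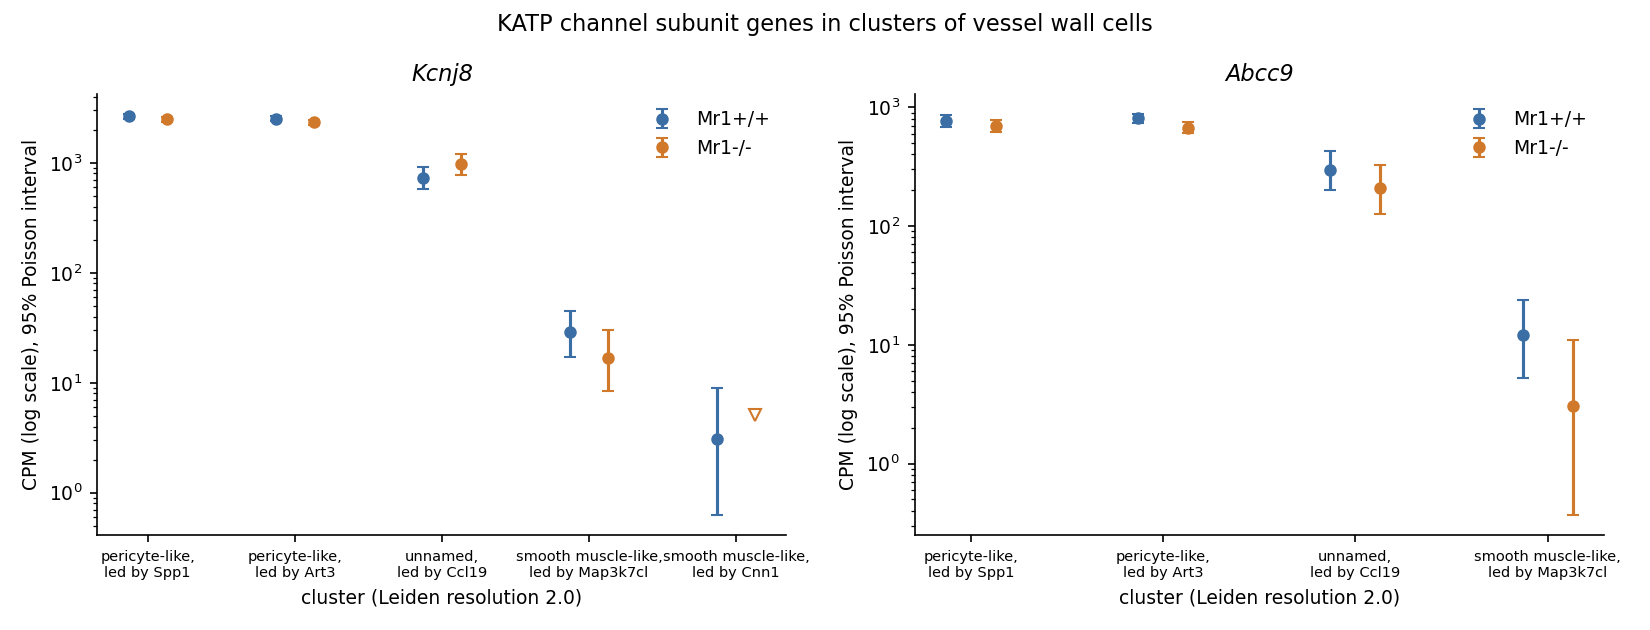
CPM on a log scale of Kcnj8 (left) and Abcc9 (right) in vessel wall clusters of the finer resolution, in both libraries, with 95% Poisson intervals. An open triangle is the upper limit where no UMI was counted. The Cnn1-led cluster, without any Abcc9 UMI, is absent on the right. For Kcnj8 the pericyte-like clusters lie between 2341 and 2640 CPM, and the smooth muscle-like clusters at 28.7 CPM or lower.

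Outside mural cells few UMIs of either subunit were counted. Fibroblast-like cells, too few to be compared (29 and 32 cells), had 2 and 3 UMIs of Kcnj8 (18.1 and 25.4 CPM) and 7 and 1 of Abcc9 (63.3 and 8.45 CPM). Endothelial-like cells, which form the capillary wall that pericytes cover, had 1 and 2 Kcnj8 UMIs and 2 and 3 Abcc9 UMIs in 1309 and 1430 cells. Of the pericyte-like cells, 88.7% in Mr1+/+ (exact binomial interval 85.6 to 91.3%) and 88.9% in Mr1-/- had a Kcnj8 UMI. Endothelial-like cells, which should lack the gene, had one in 0.0764% of Mr1+/+ cells at a higher median depth (2526 UMIs per cell against 1930). With each cell thinned to 1500 UMIs, which left out 130 and 175 shallower pericyte-like cells, the shares were 90.3% and 90.7%. Abcc9 was found in 65.1% and 60.1% of pericyte-like cells, or 60.1% and 54.4% after thinning.

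Per cell, Kcnj8 had a median of 4 UMIs in Mr1+/+ (quartiles 2 and 7, highest 27) and 3 in Mr1-/- (quartiles 1 and 6, highest 21). Abcc9 had a median of 1 UMI in each library. In thinned cells Abcc9 was found in 61.3% of Mr1+/+ cells that had a Kcnj8 UMI and in 48.6% of the 37 that had none. In Mr1-/- these shares were 55.4% and 44.4% (36 cells). In both libraries the share was higher in cells with Kcnj8, over few cells without it. The 6 and 5 Kcnj8 UMIs of neuroblast-like cells (22.8 and 20.1 CPM) each came from a single cell.

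**Figure D3:**
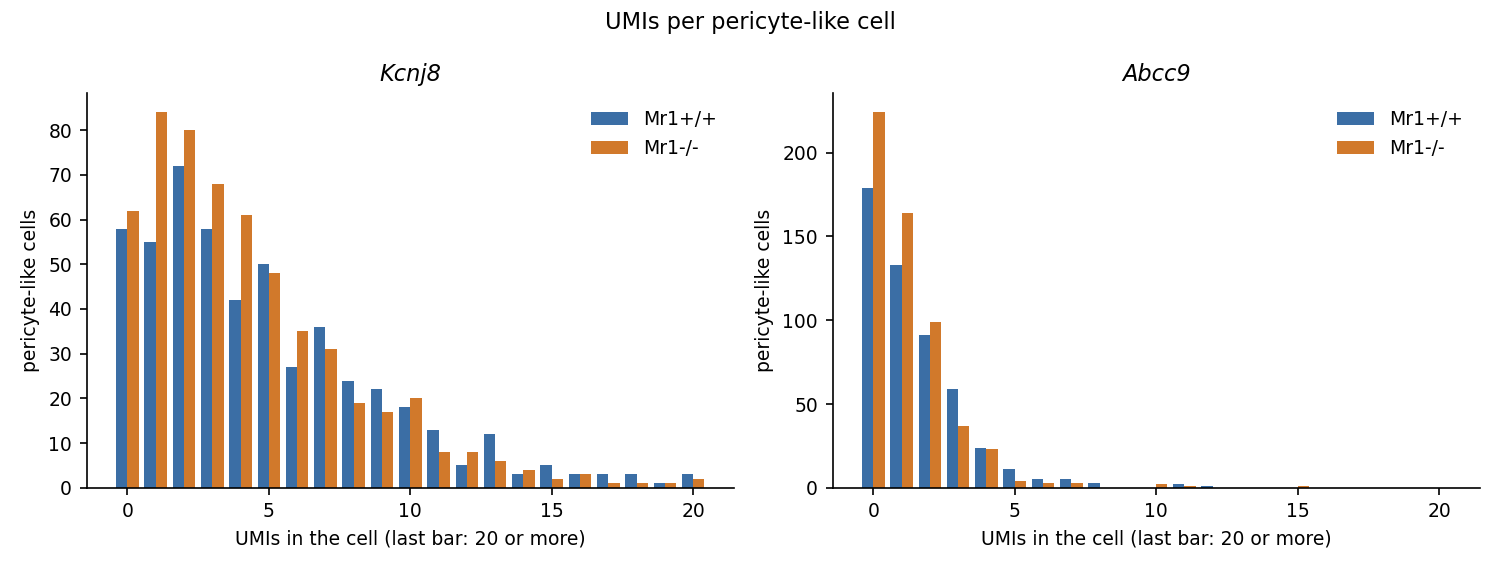
Number of pericyte-like cells (y axis) by UMIs of Kcnj8 (left) or Abcc9 (right) in the cell (x axis), for 513 Mr1+/+ and 561 Mr1-/- cells. For Kcnj8 both libraries have a single broad peak at low UMI numbers, with medians of 4 and 3. For Abcc9 the bars are highest at 0 UMIs (179 and 224 cells) and fall from there, with medians of 1 and 1.

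Between genotypes the KATP pair differed little. The CPM ratio of Mr1-/- over Mr1+/+ in pericyte-like cells was 0.938 for Kcnj8 (95% counting interval 0.886 to 0.993) and 0.868 for Abcc9 (0.781 to 0.964). Both intervals lie below 1, and neither gene passed a 1.5-fold difference, which 6.48% of the 5866 genes with at least 50 UMIs in this class did. The other KATP genes, Kcnj11 (Kir6.2) and Abcc8 (SUR1), best known from pancreatic beta cells and neurons, were nearly absent, with 20 and 29 UMIs over all cells.

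Kcnj10 encodes Kir4.1, the main potassium uptake channel of glia. It had 498 UMIs (164 CPM) in Mr1+/+ and 263 (180 CPM) in Mr1-/- astrocyte-like cells, and 798 (127 CPM) and 524 (125 CPM) in oligodendrocyte-like cells. The astrocyte-like level was 1.28-fold (1.15 to 1.44) and 1.43-fold (1.23 to 1.67) that of oligodendrocyte-like cells, so the order was the same in both libraries. Oligodendrocyte-like cells, being more numerous, still held 57.9% and 62.2% of all Kcnj10 UMIs. Among them the highest level was in the cluster led by Klk6, at 159 CPM in Mr1+/+. Oligodendrocyte precursor-like cells, too few to be compared (42 and 33 cells), had 27 and 11 UMIs. Pericyte-like and neuron-like cells had 0 UMIs in both libraries, and microglia-like cells 5 and 9.

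Kcnj16 encodes Kir5.1, which joins Kir4.1 in a channel more sensitive to pH than Kir4.1 alone. It had 357 UMIs (117 CPM) and 158 UMIs (108 CPM) in astrocyte-like cells, but 1 UMI in each library in oligodendrocyte-like cells. The ratio of astrocyte-like to oligodendrocyte-like level was 735 in Mr1+/+ (131 to 29105) and 452 in Mr1-/- (79.9 to 17953). Kcnj10 and Kcnj16 were therefore both counted in astrocyte-like cells, and Kcnj10 almost without Kcnj16 in oligodendrocyte-like cells. Ependymal-like cells, the ciliated lining of the ventricles, had 7 and 10 UMIs of Kcnj16 (18.1 and 24.5 CPM). Oligodendrocyte precursor-like cells, too few to be compared, had 5 and 2 UMIs of it (24.0 and 13.6 CPM). In thinned astrocyte-like cells Kcnj16 was found in 13.7% of Mr1+/+ cells with a Kcnj10 UMI and 14.2% of those without. The Mr1-/- shares were 15.9% and 16.2%. In both libraries the shares with and without Kcnj10 thus lay close together.

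Kcnj2 encodes Kir2.1, a strong inward rectifier of capillary endothelium and of microglia. It was thinly counted, with 103 and 132 UMIs over all cells. Microglia-like cells had 52 UMIs (13.4 CPM) and 74 (18.5 CPM). Endothelial-like cells had 25 UMIs (7.42 CPM) and 39 (11.3 CPM), of which the arterial-type cluster led by Gkn3 held 12 and 18. The microglia-like level was 1.81-fold (1.10 to 3.04) and 1.64-fold (1.10 to 2.48) the endothelial-like one. Kcnj2 and its neighbour Kcnj16, whose upstream bases are printed above, were highest in different classes: astrocyte-like cells had 0 Kcnj2 UMIs, and endothelial-like cells 0 Kcnj16 UMIs, in both libraries. Microglia-like cells, highest for Kcnj2, had 1 and 1 Kcnj16 UMIs.

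Within classes the genotype ratios of the Kir genes were near 1 in astrocyte-like and oligodendrocyte-like cells. Kcnj10 had a ratio of 1.10 (0.941 to 1.28) and 0.982 (0.878 to 1.10) in them, and Kcnj16 0.919 (0.757 to 1.11) in astrocyte-like cells. In ependymal-like cells Kcnj10 was lower in Mr1-/-, with 30 UMIs (73.4 CPM) against 47 (121 CPM), a ratio of 0.604 (0.369 to 0.975). Of the 2910 genes with at least 50 UMIs in this class 5.50% were lower by at least 1.5-fold and 10.2% passed in either direction. The 8 ependymal markers were higher in Mr1-/- there (11089 and 13413 CPM). Some marker lists of other classes were lower, among them astrocyte (1383 and 1049 CPM), oligodendrocyte (426 and 232 CPM) and smooth muscle (662 and 340 CPM). The oligodendrocyte precursor (230 and 267 CPM) and capillary endothelial lists (548 and 653 CPM) were higher, with intervals that held 1 (0.868 to 1.55 and 0.991 to 1.43). Astrocyte-like, oligodendrocyte-like and oligodendrocyte precursor-like cells carry Kcnj10. The markers' part in the Kcnj10 ratio was not tested. On thinning the Kcnj10 ratio was 0.748, no longer past 1.5-fold, with a UMI in only 8 of 54 and 7 of 65 cells. Kcnj2 was higher in Mr1-/- endothelial-like cells (1.52, 0.898 to 2.62), where 2.71% of 8881 genes were higher by 1.5-fold and 4.83% passed in either direction. When each cell was thinned to the same depth that ratio was 0.996, with a UMI in only 15 of 1133 and 18 of 1280 cells. In microglia-like cells the Kcnj2 ratio was 1.38 (0.954 to 2). Both intervals hold 1.

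Kcnn2 encodes SK2, a small-conductance channel opened by intracellular calcium, best known from neurons. Here it was counted mainly in astrocyte-like cells: 498 UMIs (164 CPM, 150 to 179) in Mr1+/+ and 134 UMIs (91.5 CPM, 76.7 to 108) in Mr1-/-. These were 94.9% and 91.2% of its UMIs. Neuroblast-like cells had 17 and 5 UMIs (64.7 and 20.1 CPM), found in 18.2% and 9.26% of cells. The astrocyte-like level was 2.53-fold (1.56 to 4.38) and 4.54-fold (1.90 to 14.2) that of neuroblast-like cells. The ratio of Mr1-/- over Mr1+/+ in neuroblast-like cells, with too few UMIs to be tested, was 0.311 (0.0898 to 0.879). In this class 19.5% of the 1899 genes with at least 50 UMIs passed 1.5-fold. Its oligodendrocyte markers summed to 1896 and 88.6 CPM and its endothelial markers to 255 and 4.03 CPM. The oligodendrocyte precursor list was at 240 and 250 CPM. The part of these markers was not tested. Neuron-like cells had 4 and 4 UMIs, an untested ratio of 1.64 (0.305 to 8.78). Pericyte-like, smooth muscle-like and microglia-like cells had 0 UMIs.

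Of the 20 pairs of gene and class with at least 50 UMIs, Kcnn2 in astrocyte-like cells had the ratio farthest from 1. The ratio of Mr1-/- over Mr1+/+ was 0.559 (0.458 to 0.677). In this class 5.78% of the 8482 genes with at least 50 UMIs passed 1.5-fold, and 3.64% were lower by that much. Of these genes 79 had a ratio at or below that of Kcnn2, itself included, and of the 1139 genes with as many UMIs as Kcnn2 or more, 2 did. Of the astrocyte-like cells, 36.9% in Mr1+/+ and 24.5% in Mr1-/- had a Kcnn2 UMI (medians of 3120 and 2994 UMIs), or in 22.7% and 13.2% after thinning to 1500 UMIs. In microglia-like cells, which had more UMIs per cell (medians of 3953 and 3678), the share was 0. The highest count in a cell was 6 in Mr1+/+ and 4 in Mr1-/-, so no single cell carried the difference.

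The difference was seen in both finer astrocyte-like clusters. In the cluster led by Clu the level was 149 CPM in Mr1+/+ and 86.7 in Mr1-/-, a ratio of 0.584. In the cluster led by Igfbp2 it was 183 and 99.8 CPM, a ratio of 0.545. Over 14 alternative settings the ratio ran from 0.5 to 0.584, each past 1.5-fold. No other channel gene tested in these cells passed 1.5-fold. Beside Kcnj10 (1.10) and Kcnj16 (0.919), Kcnk2 had a ratio of 1.06 (0.893 to 1.25) and Kcnk1, which encodes the K2P channel TWIK-1, 0.957 (0.868 to 1.05) at 439 and 420 CPM. Kcnn3 (SK3) had 70 and 41 UMIs and a ratio of 1.22 (0.806 to 1.81), and Kcnn1 (SK1) 35 and 22 UMIs and 1.31 (0.729 to 2.29). Kcnd2 (Kv4.2) was at 0.765 (0.504 to 1.14) and Kcnma1 at 0.855 (0.489 to 1.45), with intervals that hold the ratio of Kcnn2. The 8 astrocyte markers summed to 21735 and 20998 CPM, the 8 neuron markers to 14.5 and 10.9 CPM and the 8 neuroblast markers to 73.3 and 71.7 CPM. Mice, dissociation and library were each confounded with genotype, so that their shares in the difference cannot be told apart. A transcript on the opposite strand, A330093E20Rik, had 8 and 4 UMIs.

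**Figure D4:**
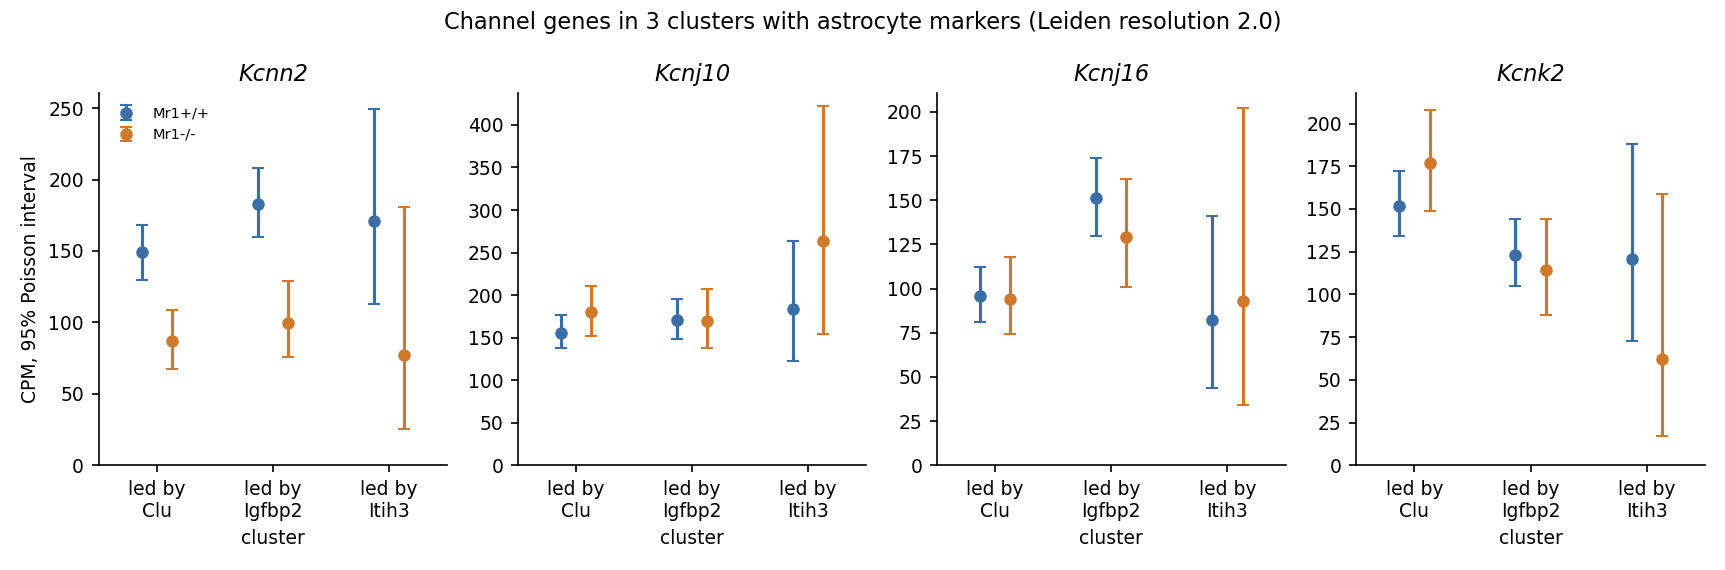
CPM of 4 channel genes in 3 clusters with astrocyte markers (x axis) of both libraries, with 95% Poisson intervals; the Itih3-led cluster is shallow and unnamed. For Kcnn2 the Mr1-/- points lie below the Mr1+/+ points in each cluster (149 and 86.7, 183 and 99.8 CPM in the larger clusters), while for Kcnj10, Kcnj16 and Kcnk2 the intervals overlap.

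Kcnma1 encodes the pore of the BK channel, opened by calcium and voltage together, which limits smooth muscle contraction. Its levels were 44.3 and 39.9 CPM in smooth muscle-like cells (73 and 55 UMIs), 52.7 and 80.0 CPM in neuron-like cells (56 and 52 UMIs), 16.8 and 14.3 CPM in astrocyte-like cells (51 and 21 UMIs) and 7.23 and 6.25 CPM in microglia-like cells. Ependymal-like cells had 15.5 and 19.6 CPM, from 6 and 8 UMIs. Oligodendrocyte precursor-like cells, too few to be compared, had 33.7 and 13.6 CPM, from 7 and 2 UMIs. In Mr1+/+ the neuron-like and smooth muscle-like levels did not differ beyond counting error (1.19, 0.824 to 1.71), whereas in Mr1-/- the former was 2-fold higher (1.34 to 2.98). Pericyte-like cells had 1 and 0 UMIs, so the class that held most KATP UMIs held almost none of the BK pore. Its partner Kcnmb1 encodes the β1 subunit that raises the calcium sensitivity of BK in smooth muscle. Kcnmb1 was highest in smooth muscle-like cells (305 and 342 CPM). It was also counted in ependymal-like (204 and 296 CPM) and pericyte-like cells (164 and 189 CPM). Within smooth muscle-like cells Kcnma1 stood at 52.9 and 61.1 CPM in the Cnn1-led cluster and at 31.7 and 16.8 CPM in the Map3k7cl-led one. That order is the reverse of the order of Kcnj8, which was nearly all in the latter.

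The genotype ratio of Kcnma1 was 0.901 (0.623 to 1.30) in smooth muscle-like cells, where 5.67% of 6538 genes passed 1.5-fold, 0.855 (0.489 to 1.45) in astrocyte-like and 0.865 (0.483 to 1.54) in microglia-like cells. In the last it was 1.70 on thinning, with a UMI in only 3 of 629 and 8 of 739 cells, and in astrocyte-like cells it ran from 0.655 to 1.09 over the alternatives. The lowest smooth muscle-like ratio was 0.662, past 1.5-fold, with at most 5% mitochondrial UMIs. In neuron-like cells it was 1.52 (1.02 to 2.26), where 2.78% of 5747 genes were higher by 1.5-fold and 9.03% passed in either direction. This ratio was 0.986 when each cell was thinned to 1500 UMIs, with a UMI in 20 of 230 and 15 of 159 cells. A cluster led by Nrgn, of 17 and 7 cells, gave 15 and 14 of the UMIs, and the Reln-led cluster alone had a ratio of 1.42. The 8 smooth muscle markers summed to 403 CPM in Mr1+/+ and 52.3 CPM in Mr1-/- neuron-like cells, opposite in direction to Kcnma1. The 8 oligodendrocyte markers moved with it, from 121 to 425 CPM, each of the 8 being higher. The part of either was not tested.

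Kcnk2 encodes TREK-1, a K2P channel opened by stretch, warmth and polyunsaturated lipids. It had 321 UMIs (302 CPM) and 189 UMIs (291 CPM) in neuron-like cells, 56 (145 CPM) and 62 (152 CPM) in ependymal-like cells, 422 (139 CPM) and 215 (147 CPM) in astrocyte-like cells, and 31 (118 CPM) and 21 (84.6 CPM) in neuroblast-like cells. The neuron-like level was 2.18-fold (1.88 to 2.52) and 1.98-fold (1.62 to 2.42) the astrocyte-like one, and the ependymal-like and astrocyte-like levels overlapped. Most of the neuron-like UMIs, 305 and 183, were in the Reln-led cluster. Reln, the secreted glycoprotein reelin, is known as a product of Cajal-Retzius cells and of some interneurons. Among the classes too small to be compared, fibroblast-like cells had 10 and 18 UMIs (90.4 and 152 CPM). Oligodendrocyte precursor-like cells had 24 and 11 UMIs (115 and 74.9 CPM). Oligodendrocyte-like cells had 6 and 7 UMIs and smooth muscle-like cells 0. An antisense transcript, A430027H14Rik, had 51 and 27 UMIs in astrocyte-like cells. No genotype ratio of Kcnk2 passed 1.5-fold: 0.963 (0.800 to 1.16) in neuron-like, 1.06 in astrocyte-like, 1.05 (0.718 to 1.53) in ependymal-like and 0.717 (0.391 to 1.29) in neuroblast-like cells, where 19.5% of 1899 genes did. The last was 0.521 on thinning, with a UMI in only 8 of 61 and 4 of 52 cells, and 1.19 as a mean of per-cell CPM. These values lie on opposite sides of 1. The ependymal-like ratio was 0.712 on thinning.

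Kcnk13 encodes THIK-1, the K2P channel that sets the resting potential of microglia. Its level was nevertheless highest in oligodendrocyte-like cells, with 886 UMIs (142 CPM) and 587 (140 CPM), ahead of microglia-like cells with 401 (104 CPM) and 433 (108 CPM). The oligodendrocyte-like level was 1.37-fold (1.21 to 1.54) and 1.30-fold (1.14 to 1.47) higher. Astrocyte-like cells had only 6 and 5 UMIs, 52.5-fold (23.9 to 144) and 31.7-fold (13.5 to 98.1) below the microglia-like level, so the transcript was not spread over all glia. A UMI was found in 42.5% and 43.7% of oligodendrocyte-like cells and 39.9% and 39.3% of microglia-like cells, against 0.628% and 1.05% of astrocyte-like cells. After thinning the first shares were 20.2% and 19.3%, and those of microglia-like cells 15.7% and 14.5%. In thinned oligodendrocyte-like cells Kcnk13 was found in 19.5% and 21.8% of cells with a Kcnj10 UMI and in 20.3% and 18.8% of cells without. Between genotypes it barely differed: 0.990 (0.891 to 1.10) in oligodendrocyte-like cells, where 3.52% of 8999 genes passed 1.5-fold, and 1.05 (0.911 to 1.20) in microglia-like cells.

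Kcnk6 encodes TWIK-2, a K2P channel known from macrophages as a potassium exit route before activation of the NLRP3 inflammasome. It was counted almost only in microglia-like cells, with 265 UMIs (68.4 CPM) and 214 (53.5 CPM), which were 95.7% and 95.1% of its UMIs. Endothelial-like cells had 10 and 9 UMIs, 23.0-fold (12.3 to 48.6) and 20.5-fold (10.6 to 45.5) lower in CPM. Unlike Kcnk13 it had 1 and 0 UMIs in oligodendrocyte-like cells. The genotype ratio was 0.782 (0.650 to 0.94). The interval lies below 1, and the ratio did not pass 1.5-fold, which 3.77% of 8866 genes did in this class. With cells thinned to 1500 UMIs it was 0.572, past 1.5-fold, with a UMI in 9.70% of Mr1+/+ and 5.82% of Mr1-/- cells. Unthinned it was 0.840 in the microglia-like cluster led by Ccl4 and Ccl3 and 0.669 in the cluster led by P2ry12 and Tmem119. The 8 microglia markers summed to 40829 and 40351 CPM.

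Over the 9 classes the 10 genes gave 90 pairs of gene and class, of which 20 had at least 50 UMIs. In 10 of these 20 the ratio lay between 0.9 and 1.1, and the median log2 ratio was -0.07. The 1.5-fold line was passed by 4 pairs (20%), 2 higher and 2 lower in Mr1-/-: Kcnj2 in endothelial-like and Kcnma1 in neuron-like cells, and Kcnn2 in astrocyte-like and Kcnj10 in ependymal-like cells. On thinning to 1500 UMIs 4 pairs also passed, but only Kcnn2 in astrocyte-like cells (0.5) was in both sets. The ratios of the other 3 were then 0.996, 0.986 and 0.748, and Kcnk6 in microglia-like (0.572), Kcnk2 in neuroblast-like (0.521) and Kcnma1 in microglia-like cells (1.70) passed instead. Thinned ratios rest on fewer UMIs and are given here without intervals. Over all genes and classes 6.03% of pairs passed without thinning. In 14 pairs the counting interval held 1. That does not show equal levels, since the interval of Kcnma1 in microglia-like cells, for example, ran from 0.483 to 1.54.

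**Figure D5:**
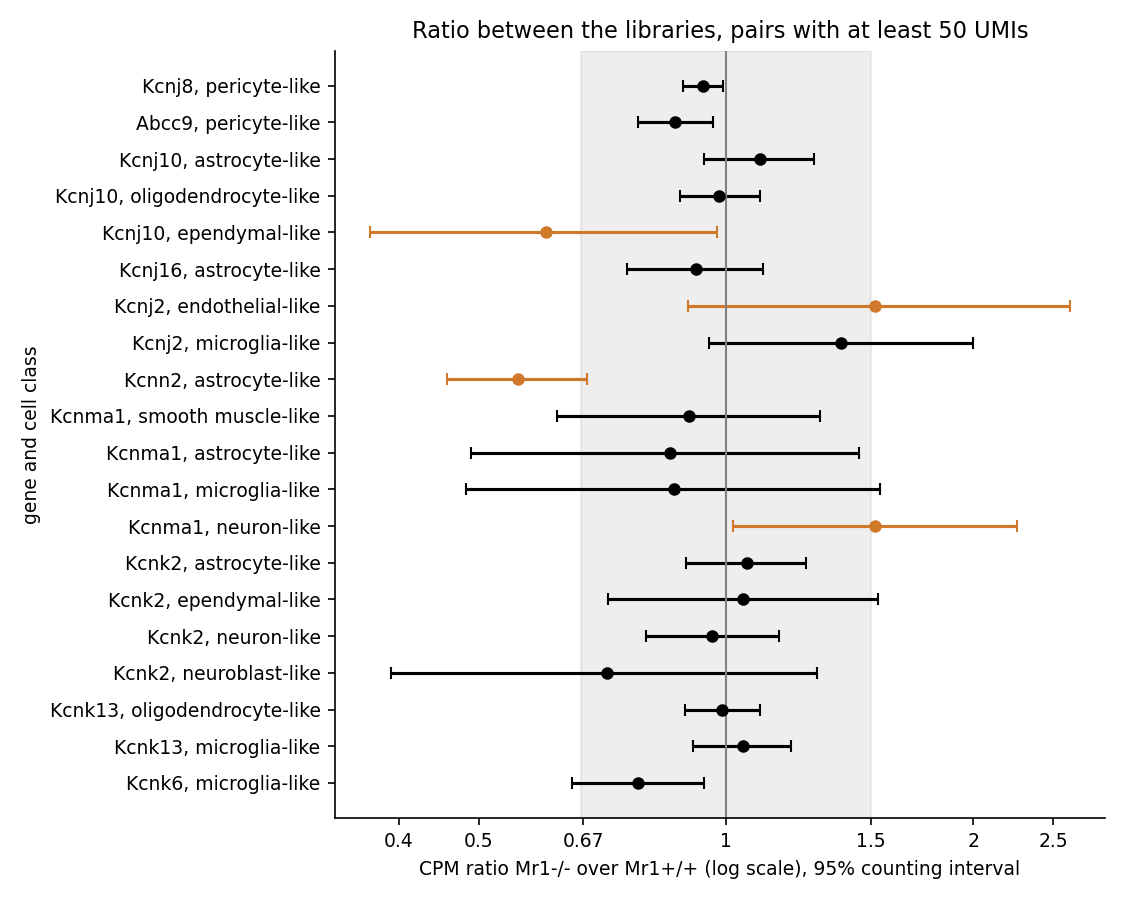
CPM ratio of Mr1-/- over Mr1+/+ (log x axis) for the 20 pairs of gene and class with at least 50 UMIs, with 95% counting intervals; the grey band spans ratios below 1.5-fold and orange marks the 4 pairs outside it. Kcnn2 in astrocyte-like cells lies farthest from 1, at 0.559 with an interval of 0.458 to 0.677.

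The remaining potassium channel and auxiliary subunit genes, 90 in 6 lists, were placed in classes as repeatably. Of the 20 with at least 200 UMIs, each was highest in the same class in both libraries. Smooth muscle-like cells had the highest levels of Kcnk3 (TASK-1, 69.2 and 76.2 CPM) and Kcna5 (Kv1.5, 106 and 106 CPM). Pericyte-like cells led for Kcne4, a Kv accessory subunit (262 and 192 CPM), oligodendrocyte-like cells for Kcna1 and Kcna6 (Kv1.1 at 152 and 158 CPM, Kv1.6 at 138 and 144 CPM), and microglia-like cells for Kcnk12 (THIK-2, 73.3 and 80.0 CPM), the closest relative of Kcnk13. Of 49 tested pairs of these genes and classes 3 passed 1.5-fold (6.12%, against 6.03% over all genes and classes). Kcns3 in smooth muscle-like cells was higher (1.53, 1.09 to 2.15). Kcna5 in endothelial-like (0.415, 0.220 to 0.748) and Kcnk1 in neuroblast-like cells (0.410, 0.228 to 0.710) were lower. In neuroblast-like cells 19.5% of 1899 genes passed 1.5-fold.

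Partner genes of the same roles were fixed in 4 further lists: the sodium pump and cation cotransporters, the dystrophin complex that holds Kir4.1 at astrocyte endfeet, the calcium and cyclic GMP machinery of vascular muscle, and the purine receptors and inflammasome genes studied with THIK-1 in microglia. In astrocyte-like cells none of 7 tested endfoot genes and none of 8 tested uptake genes passed 1.5-fold. Their median log2 ratios were -0.03 and -0.10, beside -0.02 over all tested genes. In microglia-like cells 1 of 6 genes of the THIK-1 list passed 1.5-fold, as did 3.77% of all tested genes there. It was Il1b, the gene of interleukin-1β, with 30 and 63 UMIs (2.03, 1.30 to 3.25). The sum of the 6 neutrophil markers moved with it, from 22.2 to 135 CPM. Of these markers 4 were higher in Mr1-/-, 1 was lower and Ngp had no UMI in either library. Their part was not tested. P2ry12, the ADP receptor that acts on THIK-1, was at 5131 and 4971 CPM (0.969, 0.95 to 0.988), and Pycard, the inflammasome adaptor, at 454 and 500 CPM (1.10, 1.03 to 1.18). Over all 10 lists 16 of 194 pairs passed (8.25%, against 6.03% over all genes), 8 in each direction. Most of the others were thinly counted in the class. Fxyd5 (1.63) and Fxyd6 (2.13), regulators of the sodium pump, were higher in Mr1-/- pericyte-like cells, Fxyd1 (1.66) and P2ry12 (1.61) in oligodendrocyte-like, Cacna1h (1.56), a T-type calcium channel gene, in smooth muscle-like, and Pycard (3.48) in endothelial-like cells. Pycard had 14 and 50 UMIs there, with an interval of 1.90 to 6.82. The microglia markers summed to 78.4 and 66.3 CPM in endothelial-like cells, and their part was not tested. Slc12a4 was lower in oligodendrocyte-like (0.631) and P2ry12 in astrocyte-like cells (0.530), and Atp1b1 (0.618) and Gucy1b1 (0.592) in neuron-like cells. The intervals of Fxyd1 (0.961 to 2.86) and Slc12a4 (0.349 to 1.10) held 1. So did those of P2ry12 in oligodendrocyte-like (0.918 to 2.82) and astrocyte-like cells (0.256 to 1.02), a gene among the microglia markers. Atp1b1 was better counted, with 402 and 152 UMIs (0.510 to 0.747).

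The genes whose levels ran most like each channel gene were found by Pearson's r of log2(CPM + 10) over 30 profiles (15 clusters in 2 libraries, which share each library's depth). For Kcnj8 these were Nodal (r = 0.990), Fhl2 (0.989) and Abcc9 itself (0.987), the third of 11377 genes. Abcc9 ran with Nts (0.996), Gm13536 (0.995) and Nodal (0.994). Kcnn2 ran with Lgi1 (0.984), Kcnk1 (0.977) and Rmst (0.974), and Kcnj16 with Hrh1, the histamine H1 receptor gene (above 0.999), Cyp4f15 (0.999) and Gm35552 (0.999). Kcnj10, split between astrocyte-like and oligodendrocyte-like cells, ran with the myelin-associated Omg (0.986), Folh1 (0.983) and Pcsk6 (0.983). Kcnk13 ran with Trf (0.985), Depdc7 (0.973) and Evi2a (0.967), and Kcnk6 with Tifab (0.985), Cyth4 (0.985) and the macrophage gene Mpeg1 (0.979). Kcnk2 ran with the transcription factor gene Emx2 (0.994), Mgat4c (0.993) and Igsf21 (0.982). The least close matches were those of the thinly counted Kcnj2 (Jun 0.877, Oma1 0.822) and of the broadly counted Kcnma1 (Ramp1 0.910, Mical2 0.891, Ngb 0.862). Of the 30 genes so chosen 13 were found again with the Mr1+/+ library alone and 13 with the Mr1-/- library alone, and profiles that turn on a few clusters give high r for many genes.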

How the data were processed

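Hippocampal cells of 1 Mr1+/+ and 1 Mr1-/- library were measured by 10x 5' single-cell RNA-seq. The deposited matrices hold raw UMI counts per gene and barcode, made by the authors with Cell Ranger (3.1.0 per the file headers, 5.1.0 and STAR with mm10 per the submitters' processing notes). The lowest barcode held 501 UMIs in both libraries, and the 6410 and 5347 barcodes held 23244575 and 18349132 UMIs. From them, cells with at least 300 genes and at most 10% mitochondrial UMIs were kept, and doublets called by Scrublet (335 and 171) removed. Cells were clustered with scanpy 1.11.5 (2000 variable genes, 30 components, Leiden resolution 1.0), leaving 101 potassium channel genes out. A cluster was named with at least 3 detected markers of the class, no more markers of another class than its own among its 10 leading genes and, if far shallower than its library, at least 1 of its own there. Shallow clusters with medians of 899.5 (microglia-like) and 931 UMIs (astrocyte-like) were so named. Counts were summed per class and library and given as CPM. Intervals are exact (Poisson, Clopper-Pearson, conditional binomial) at 95% and cover counting error only. Ratios were read at 1.5-fold in genes with at least 50 UMIs over both libraries. Cells were thinned to 1500 UMIs for shares. The ratio interval and the 1.5-fold reading were checked on simulated sums of astrocyte-like cells. These were drawn from the Poisson model that the interval assumes. Filtering, clustering, naming and thinning were not simulated. Members, marker lists and gene lists were chosen with earlier results of these data known. All members are named, as are, of the other lists, up to 4 well-counted genes per class described, those past 1.5-fold, and the 3 genes most alike in profile. Some genes that this rule names are not reported here. Alternatives changed the filters, clustering, depth, scaling and fold. Gene positions are from GRCm38 (GENCODE) and upstream bases from RefSeq.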

Additional observations from a re-analysis of the deposited data

How the results depend on the processing

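No paired analysis was possible because each genotype had 1 library. Under each alternative run (filters on cells, clustering resolution, thinning, doublets kept, mean of per-cell CPM, and, chosen after seeing the data, leaving out clusters with a median under 1500 UMIs), all 10 genes kept their highest class. The count of 4 gene and class pairs past 1.5-fold was 2 with 10 CPM added to both libraries and 3 to 5 under the others. The Kcnj8 fold of pericyte-like over smooth muscle-like cells (227 over both libraries) was 435 with channel genes kept in the clustering. The share of all gene and class pairs past the fold (6.03%) was 12.5% with at least 20 UMIs, 24.9% with 1 UMI in each library and 0.888% at 2-fold. The 16 list pairs past the fold were 36 after thinning. Of the 30 genes most like the members, 13 were found again in the Mr1+/+ library alone and 13 in the Mr1-/- library alone. Of 285 alternative ratios 276 lay within the counting interval, 7 outside it, and 2 of pairs past 1.5-fold changed direction, both after thinning: Kcnma1 in neuron-like (0.986) and Kcnj2 in endothelial-like cells (0.996). In all, 20 alternative ratios, in 11 pairs, lay across 1 from the value reported. The causes were not tested. Kcnj10 in ependymal-like cells ran from 0.484 to 0.748. Depth limits the genes with few UMIs most: for Kcnj2 in endothelial-like cells the ratio ran from 0.996 to 1.61.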
